A study of Mus musculus with 38 samples.

Results

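Genes of heat production were followed in brown adipose tissue of C57BL/6J mice on 38 arrays. The set holds 9 genes, Ucp1, Ucp2, Ucp3, Cidea, Dio2, Cox7a1, Cox8b, Otop1 and Kcnk3, which were picked out by gene name from the 29411 gene names on the array. The rule uses no measured value, but the set was chosen with earlier results of these data known. The mice were weaned, 3 to 4 weeks old at the start, and had free access to food and water under a 12:12 hour light and dark cycle. The LFC group ate a normal diet with 10% of its calories from fat. The HFC group ate a high fat high sucrose diet with 60% of its calories from fat. The groups HF5, HF20 and HF75 ate the same high fat high sucrose diet together with 5, 20 or 75 µg of the ethano-botanical formulation Kal-1. The labels give neither the sex of the mice nor the composition of Kal-1. LFC and HFC were measured on Day 6, Day 10, Day 14 and Week 0 and then at Weeks 3, 6, 9, 12, 15 and 18, which gives 10 arrays each. Each Kal-1 dose was measured at the 6 time points from Week 3 to Week 18. Weeks were counted from Day 14, so that Day 14 and Week 0 are the same age on the diet. Each group had 1 array per time point, and nothing says whether the RNA of several animals was pooled on it. Time points therefore served as the replicates, and p-values measure the spread between these arrays.

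Brown fat makes heat by letting protons back into the mitochondrial matrix without making ATP. The protein that does this is Ucp1, and its gene is switched on by noradrenaline through cyclic AMP, by thyroid hormone and by fatty acid sensing nuclear receptors. Ucp2 and Ucp3 are relatives of Ucp1 in the mitochondrial inner membrane, Ucp2 with wide expression including immune cells and Ucp3 mainly in muscle and brown fat. Cox7a1 and Cox8b encode the muscle and brown fat forms of subunits of cytochrome c oxidase, the last enzyme of the respiratory chain. Cidea coats lipid droplets, Dio2 makes active thyroid hormone inside the cell, Otop1 is a proton channel and Kcnk3 is a potassium leak channel.

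The sequences shown first are those of the genes that turned out to move together across arrays, Ucp1, Cox7a1 and Cox8b, with Dio2 for contrast. Each promoter is the 200 bases before the RefSeq gene start in mouse build GRCm38.p6, 5′ to 3′ on the strand of the gene, and 7 of the 9 genes matched an entry. The Ucp1 window lies at chr8:83290148-83290347 on the plus strand and the Cox7a1 window at chr7:30183971-30184170 on the plus strand. The Cox8b window lies at chr7:140900447-140900646 on the minus strand and the Dio2 window at chr12:90739039-90739238 on the minus strand. Capitals mark matches to 6 motifs searched on both strands. They were the TATA box forms TATAAA and also TATATA, the short cyclic AMP element TGACG and the full one, TGACGTCA, which contains the short one, the nuclear receptor element AGGTCA and the CCAAT box. The probe sequences are the 60 bases printed on the array for Ucp1 and Cox7a1.
Ucp1 promoter: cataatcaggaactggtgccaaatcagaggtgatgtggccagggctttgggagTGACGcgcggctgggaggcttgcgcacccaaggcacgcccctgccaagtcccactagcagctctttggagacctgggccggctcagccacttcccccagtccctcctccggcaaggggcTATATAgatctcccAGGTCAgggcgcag
Dio2 promoter: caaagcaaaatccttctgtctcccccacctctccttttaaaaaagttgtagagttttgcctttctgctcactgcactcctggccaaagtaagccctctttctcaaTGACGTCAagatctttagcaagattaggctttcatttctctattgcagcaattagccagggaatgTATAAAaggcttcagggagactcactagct
Cox7a1 promoter: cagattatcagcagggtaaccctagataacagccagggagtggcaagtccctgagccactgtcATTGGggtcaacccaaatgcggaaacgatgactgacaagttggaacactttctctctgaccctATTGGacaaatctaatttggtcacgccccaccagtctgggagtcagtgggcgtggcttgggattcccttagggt
Cox8b promoter: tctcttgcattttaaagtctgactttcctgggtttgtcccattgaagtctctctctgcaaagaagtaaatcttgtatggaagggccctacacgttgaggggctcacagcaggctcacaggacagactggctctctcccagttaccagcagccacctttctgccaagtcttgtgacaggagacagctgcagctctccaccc
Ucp1 probe: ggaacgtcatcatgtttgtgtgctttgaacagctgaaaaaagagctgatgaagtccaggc
Cox7a1 probe: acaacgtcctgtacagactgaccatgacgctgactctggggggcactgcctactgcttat

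The Ucp1 window held TATATA at bases -28 to -23 from the gene start, AGGTCA at -14 to -9 and TGACG at -147 to -143. The Dio2 window held TATAAA at -30 to -25 and TGACGTCA at -95 to -88. The Cox7a1 window held CCAAT on the opposite strand, read as ATTGG in the printed sequence, at -137 to -133 and at -74 to -70. None of the 6 motifs was in the Cox8b window. Over 32851 promoter windows of the same length, TATAAA was in 9.96%, TATATA in 4.29%, TGACG in 15.7%, TGACGTCA in 1.47%, AGGTCA in 11.4% and CCAAT in 29.3%. No motif was common to the windows of Ucp1, Cox7a1 and Cox8b, and a match is a description of letters, not a measured site.

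Levels are log2 of the processed signal of a gene's brightest probe minus log2 of the 75th percentile of all signals on that array, so that 0 is the 75th percentile and 1 unit is a doubling. Levels are compared between arrays and never between genes, because each probe has its own brightness. The 21856 genes tested are those flagged as above background on 6 or more arrays, and all 9 passed. Ucp1, Ucp2, Cidea, Cox7a1, Cox8b and Kcnk3 were well above background on 38 of 38 arrays, Dio2 on 37, Otop1 on 36 and Ucp3 on 27.

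The arrays differed strongly in brightness before scaling. Their 75th percentile ran from 35.1 to 1209 intensity units. No array lay between 430 and 600 units, and the 11 arrays above 600 units are called bright and the other 27 dim. Bright arrays were 4 of LFC, 2 of HFC, 0 of HF5, 4 of HF20 and 1 of HF75, so that brightness and the HF20 group overlap in part. Saturated spots, whose signal is a lower limit, numbered 285 to 985 on bright arrays and 7 to 148 on dim ones. Among the 9 genes, 38 values were saturated, and each of them lay on a bright array. Cidea, Cox7a1 and Cox8b were saturated on 10 arrays each, which were 4 of LFC, 2 of HFC and 4 of HF20. Ucp1 was saturated on 8 arrays, which were 3 of LFC, 1 of HFC and 4 of HF20. The other 5 genes were never saturated.

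**Figure D1:**
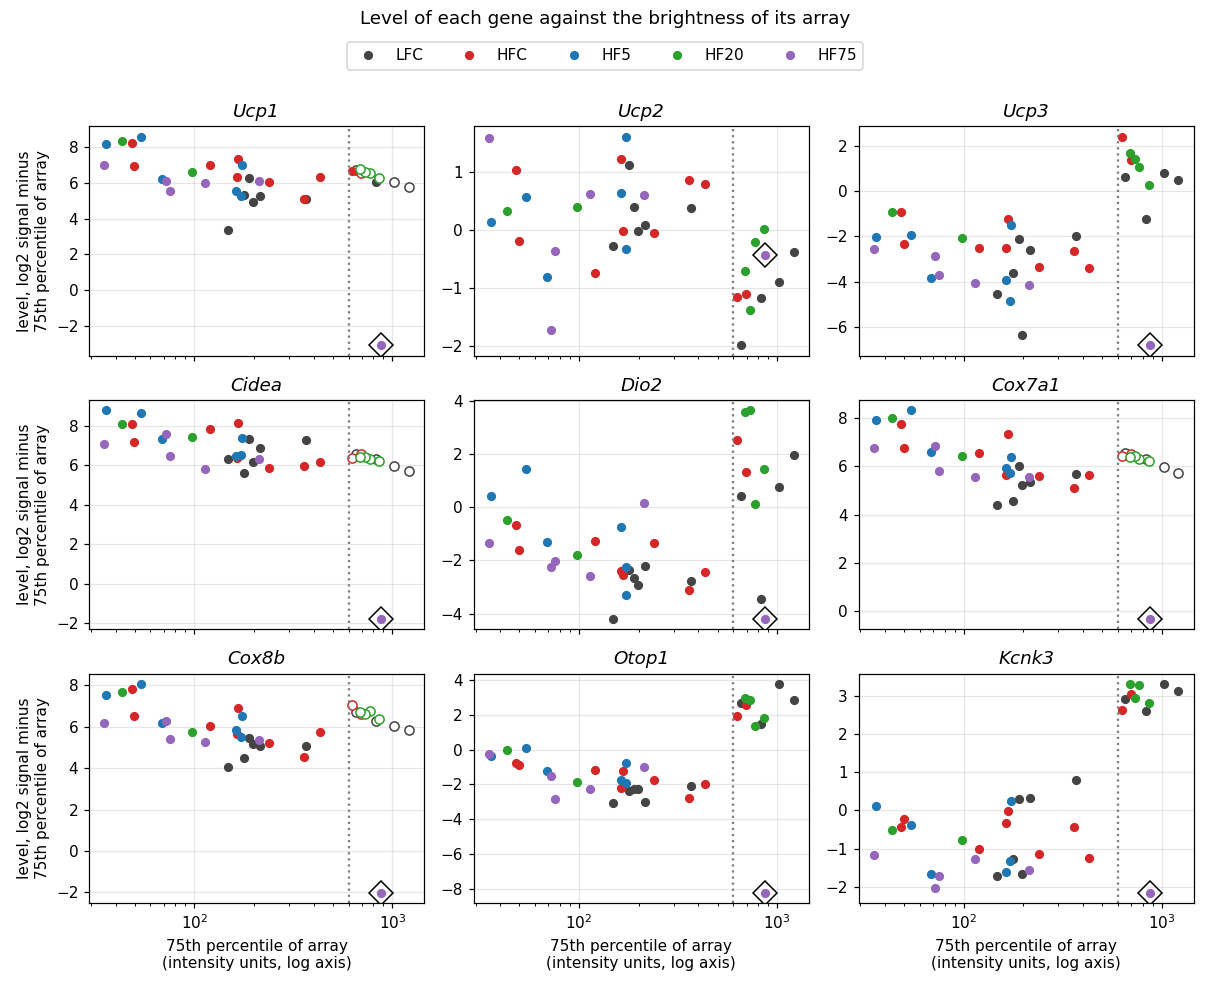
Level of each gene (vertical axis, log2 signal minus the 75th percentile of the array) against the 75th percentile of its array (horizontal log axis, intensity units), 1 point per array and colours for the 5 groups, with open points for saturated spots, a dotted line at 600 units and a diamond around the array labelled HF75 Week 3. Ucp3, Dio2, Otop1 and Kcnk3 lay higher on most bright arrays, by 3.03 to 4.04 in the mean, while Ucp1 and Cox7a1 differed by 0.11 and 0.08. The last 2 values are lower limits, since Ucp1 was saturated on 8 bright arrays and Cox7a1 on 10.

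Brightness class went along with the level of several genes after scaling. With the array labelled HF75 Week 3 set aside, the mean over the 10 other bright arrays minus the mean over the 27 dim arrays was 4.04 for Otop1, 3.79 for Kcnk3, 3.78 for Ucp3 and 3.03 for Dio2. The same difference was 0.61 for Cox8b, 0.11 for Ucp1, 0.08 for Cox7a1, -0.71 for Cidea and -1.19 for Ucp2. Saturated spots make the values of Cox8b, Ucp1, Cox7a1 and Cidea lower limits. Ucp1 was saturated on 8 of these 10 bright arrays and the other 3 genes on 10. By a second Ucp1 probe, never saturated, the difference was 2.01. Kcnk3 stood at 2.59 to 3.30 on the bright arrays and at no more than 0.79 on any dim array, so that the classes did not overlap. Scaling to the 75th percentile therefore left a difference tied to brightness in several genes, and saturation hides its size in others. Most comparisons of groups are given below for all pairs of arrays and for pairs of the same class. The cause of the brightness was not tested.

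The array labelled HF75 Week 3 went against its tissue label. Ucp1 stood at -3.07 there and between 3.38 and 8.57 on the other 37 arrays. Cidea stood at -1.78 against 5.58 to 8.77, Cox7a1 at -0.33 against 4.41 to 8.32, and Cox8b at -2.01 against 4.04 to 8.07. Otop1 stood at -8.21 and Ucp3 at -6.80, both not well above background and below every other array. Ucp2 stood at -0.43, inside its range of -1.98 to 1.61 elsewhere. The mean of 11 brown adipocyte markers was -2.87 on this array and -0.78 to 3.57 on the others, with 8 of the 11 at their lowest there. Elovl3, an elongase of brown fat, stood at -8.32 and was not well above background, while Prdm16 at 1.67 and Ebf2 at 0.66, both regulators of brown fat identity, lay within the range of the other arrays. The mean of 9 white adipocyte markers was 0.62 against -2.63 to -0.21, with 4 of the 9 at their highest there, among them Hoxc9 at -0.28, Agt at 2.78 and Mest at 2.31. The mean of 14 macrophage markers was 1.59 against -0.90 to 1.38, and that of 16 skeletal muscle markers was -2.70, within the range elsewhere. The array was kept under its label, and each result that rests on it is given with and without it.

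**Figure D2:**
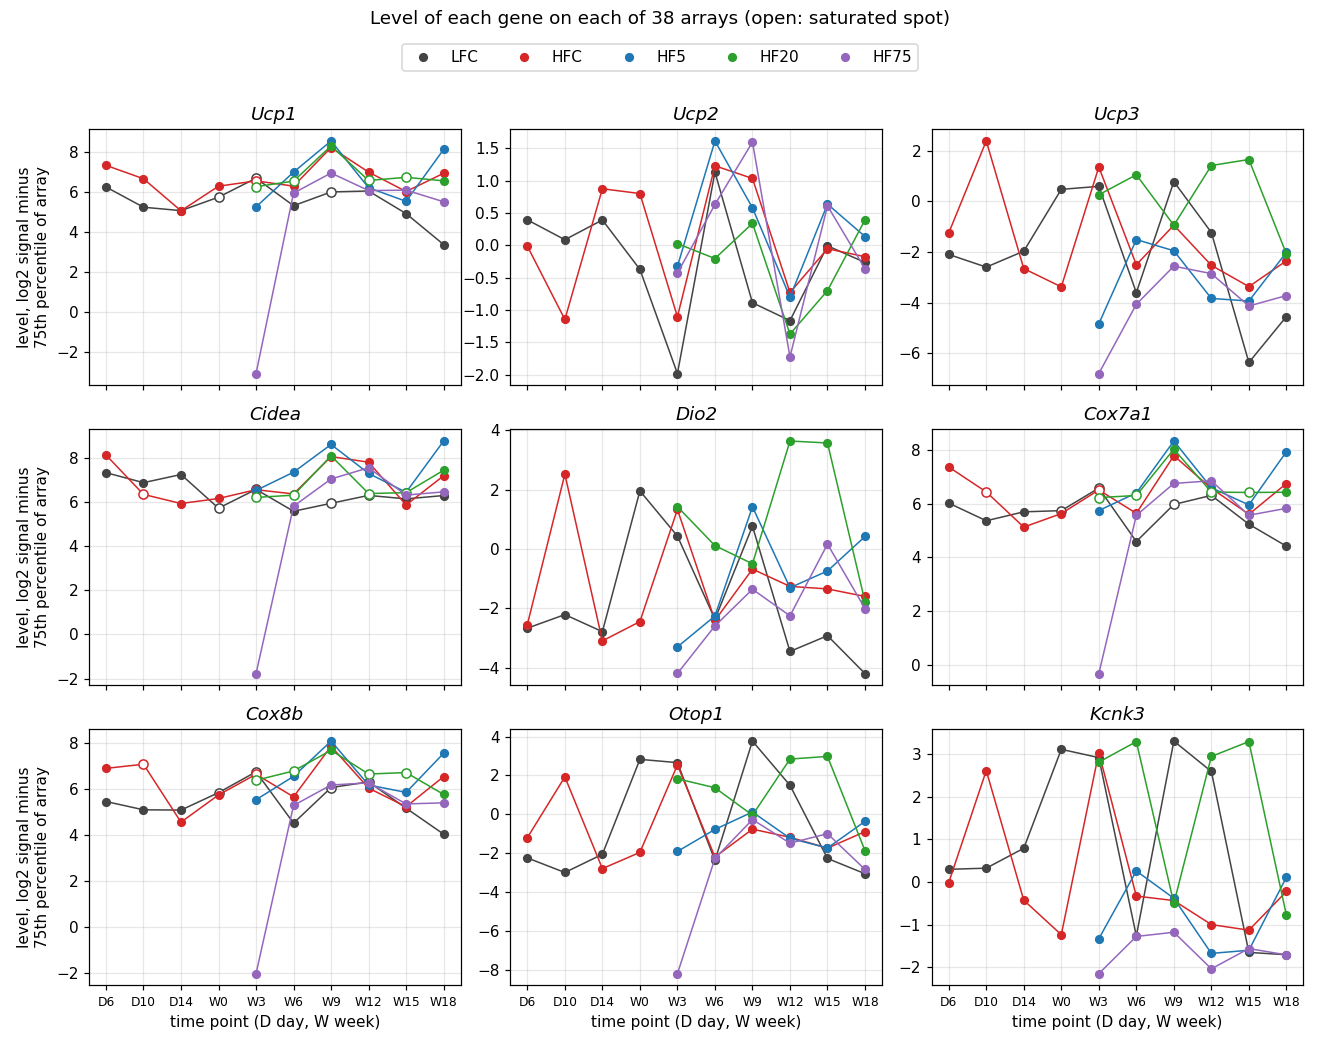
Level of the 9 genes (vertical axis, log2 signal minus the 75th percentile of the array) on each of 38 arrays by time point (horizontal axis, D for day and W for week), with a line and colour per group and open points for saturated spots. HF75 at Week 3 lies far under the rest for Ucp1, Cidea, Cox7a1, Cox8b and Otop1, and Kcnk3 splits into a high and a low set of arrays.

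Ucp1, the uncoupling protein of brown fat, was well above background on every array. LFC ranged from 3.38 to 6.70 with a median of 5.54, and HFC from 5.07 to 8.24 with a median of 6.62. HF5 ranged from 5.27 to 8.57 with a median of 6.62, HF20 from 6.28 to 8.32 with a median of 6.58, and HF75 from -3.07 to 6.96 with a median of 6.02. The groups overlapped. The lowest LFC array was that of Week 18, and the highest arrays of HFC, HF5, HF20 and HF75 were those of Week 9, at 8.24, 8.57, 8.32 and 6.96. LFC at Week 9 was 6.02, on a bright array with a saturated Ucp1 spot. Means were 5.48 ± 0.93 (SD, n = 10) in LFC, 6.65 ± 0.84 (SD, n = 10) in HFC, 6.79 ± 1.36 (SD, n = 6) in HF5, 6.85 ± 0.74 (SD, n = 6) in HF20 and 4.59 ± 3.79 (SD, n = 6) in HF75. Without its Week 3 array HF75 had a mean of 6.13 ± 0.52 (SD, n = 5).

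A second Ucp1 probe, dimmer and never saturated, gave a second reading of the same arrays. Over 37 arrays, without HF75 Week 3, the levels by the 2 probes had a Pearson's r of 0.743, and over the 27 dim arrays an r of 0.948. On bright arrays the second probe was higher than on dim ones by 2.01 in the mean, against 0.11 for the first. HF75 Week 3 was the lowest array by both probes, at -7.44 by the second, where it was not well above background. LFC Week 18 was the next lowest by both, at -0.44 by the second.

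**Figure D3:**
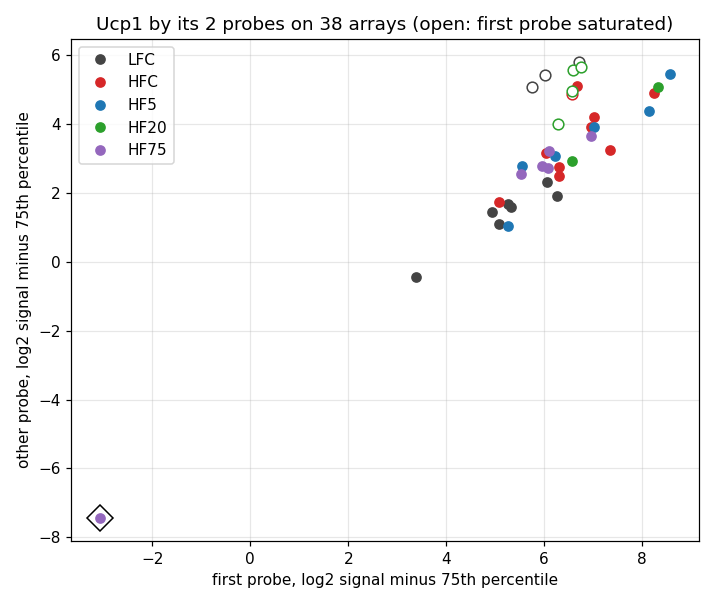
Ucp1 by its second probe (vertical axis) against its first probe (horizontal axis), both as log2 signal minus the 75th percentile, with 1 point per array, colours for the groups, open points where the first probe was saturated and a diamond around HF75 Week 3. The dim arrays lie along 1 line, the saturated points lie above it, and HF75 Week 3 sits alone at -3.07 and -7.44.

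Ucp3 varied widely within groups. LFC ran from -6.36 to 0.78 with a median of -2.03, HFC from -3.37 to 2.39 with a median of -2.42, and HF5 from -4.83 to -1.50 with a median of -2.92. HF20 ran from -2.07 to 1.66 with a median of 0.66 and HF75 from -6.80 to -2.56 with a median of -3.89. HF20 and HF75 did not overlap, and 3.77% of all genes lay lower in HF75 than in HF20 with no overlap. The closest values were -2.07 in HF20 and -2.56 in HF75, the latter not well above background. Of the 6 HF20 arrays 4 were bright. Ucp3 was well above background on 8 of 10 LFC, 9 of 10 HFC, 3 of 6 HF5, 6 of 6 HF20 and 1 of 6 HF75 arrays, so its lowest values are near the limit of detection. Ucp2 stayed within -1.98 to 1.61 on the 38 arrays, with group medians from -0.14 in LFC to 0.36 in HF5, and its groups overlapped.

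The brown fat forms of the cytochrome c oxidase subunits ran alongside Ucp1. Cox7a1 had medians of 5.71 in LFC, 6.47 in HFC, 6.49 in HF5, 6.41 in HF20 and 5.69 in HF75, with a lowest LFC value of 4.41 at Week 18 and a highest value of 8.32 in HF5 at Week 9. Cox8b had medians of 5.31, 6.28, 6.35, 6.67 and 5.37 in the same order, with 4.04 in LFC at Week 18 and 8.07 in HF5 at Week 9. Cidea had medians of 6.30, 6.46, 7.33, 6.41 and 6.39, and its lowest LFC value was 5.58 at Week 6. The groups overlapped for Cox7a1, Cox8b and Cidea.

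Dio2, Otop1 and Kcnk3 lay higher on bright arrays than on dim ones. Dio2 had medians of -2.52 in LFC, -1.47 in HFC, -1.02 in HF5, 0.77 in HF20 and -2.13 in HF75, and its highest values were 3.64 and 3.58 in HF20 at Weeks 12 and 15, both on bright arrays. Otop1 had medians of -2.16, -1.20, -1.01, 1.59 and -1.89 in the same order, and its highest value was 3.77 in LFC at Week 9, on a bright array. Kcnk3 had medians of 0.56, -0.38, -0.86, 2.88 and -1.64. Kcnk3 ran from -1.71 to 3.30 in LFC, from -1.24 to 3.03 in HFC, from -1.68 to 0.26 in HF5, from -0.78 to 3.29 in HF20 and from -2.15 to -1.18 in HF75. For Kcnk3 the HF75 arrays lay below every HF20 array and below every HFC array of Weeks 3 to 18. Of all genes 3.77% lay so against HF20 and 0.0869% against HFC. The closest values were -1.18 in HF75 and -1.13 in HFC. By a second, dimmer Kcnk3 probe HF75 overlapped both HF20 and HFC.

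Over Weeks 3 to 18, where all 5 groups were measured, the order of group means differed from gene to gene. HF75 was lowest for 8 of the 9 genes, and LFC was lowest for Ucp2. Without the Week 3 array HF75 was lowest for 3 genes, Ucp3, Otop1 and Kcnk3, and LFC for the other 6. For Ucp1 the order was HFC, HF20, HF5, LFC and HF75 from high to low, and HF75 at 6.13 stood above LFC at 5.40 without that array. With all arrays, neighbours in this order lay within the larger of their SDs for Ucp2, Cidea, Dio2, Cox8b and Otop1, and 1 pair of neighbours lay further apart for each of Ucp1, Ucp3, Cox7a1 and Kcnk3. Without the Week 3 array of HF75 this held for Ucp3 and for no other of the 9 genes.

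The first comparison asked what the high fat high sucrose diet did, over 10 time points with the time point as a block. By limma, 0 of 21856 genes passed an adjusted p of 0.05 (0%), while 1525 genes, 6.98%, had an unadjusted p under 0.05. Of the 9 thermogenic genes 0 passed, 7 were higher and 2 lower in HFC, and their median difference was 0.53 against 0.055 over all genes tested. Ucp1 was 1.17 higher in HFC (SE 0.33, 95% interval 0.46 to 1.89, limma adjusted p = 0.644), a ratio of 2.26, and it was higher at 8 of 10 time points. The pair differences ran from -0.13 at Week 3 to 3.57 at Week 18. Cox7a1 was 0.75 higher (SE 0.29, limma adjusted p = 0.644, 7 of 10 time points) and Cox8b 0.79 higher (SE 0.33, limma adjusted p = 0.644, 6 of 10 time points). Among the other 6 genes differences ran from -0.79 for Kcnk3 to 0.59 for Dio2.

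The Ucp1 difference was of like size where both arrays of a pair were of the same brightness class. In these 6 pairs Ucp1 was higher in HFC in 4, with a median difference of 1.03 and a range of -0.13 to 3.57, and the mean was 0.74 for Cox7a1 and 0.75 for Cox8b. The pair of Week 3, at -0.13, had saturated spots of Ucp1, Cox7a1 and Cox8b on both arrays, so its difference is not resolved. In the 5 pairs of dim arrays, none of them saturated, Ucp1 was higher in 4, with a mean of 1.35. With the brightness class as a covariate the Ucp1 difference was 1.18 (limma adjusted p = 0.652), and with saturated spots left out it was 1.30 (limma adjusted p = 0.642). By its second probe Ucp1 was 1.04 higher (limma adjusted p = 0.644, 7 of 10 time points), and in the 5 pairs of dim arrays it was higher in 5 of 5, by 0.63 to 4.36. Otop1 and Kcnk3, at -0.40 and -0.79 over all pairs, were at 0.51 and 0.25 in the pairs of the same class. Markers of other cells differed too, since 14 of 14 lymphocyte genes and 8 of 8 erythroid genes were higher in HFC, with medians of 1.05 and 0.90 and 0 genes called in either list. The mean of the lymphocyte markers ran from -5.13 to -2.62 in LFC and from -4.52 to -1.60 in HFC. That of the erythroid markers ran from -2.05 to 1.82 in LFC and from -1.41 to 2.08 in HFC. In the pairs of the same class, the lymphocyte mean was lower in HFC at Day 6, Week 3 and Week 6 and higher otherwise. The erythroid mean was higher in HFC in each of these pairs. Its widest gap was at Week 9, at -1.77 in LFC on a bright array and 1.99 in HFC on a dim one. At Day 10, where HFC alone was bright, both means were lower in HFC. Of 11 brown adipocyte markers 3 were higher and 8 lower, of 9 white adipocyte markers 6 and 3, of 14 macrophage markers 7 and 7 and of 16 skeletal muscle markers 9 and 7, again with 0 called. Their part in the result was not tested. In a piece of whole tissue, fewer cells of a type and less RNA per cell cannot be told apart.

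**Figure D4:**
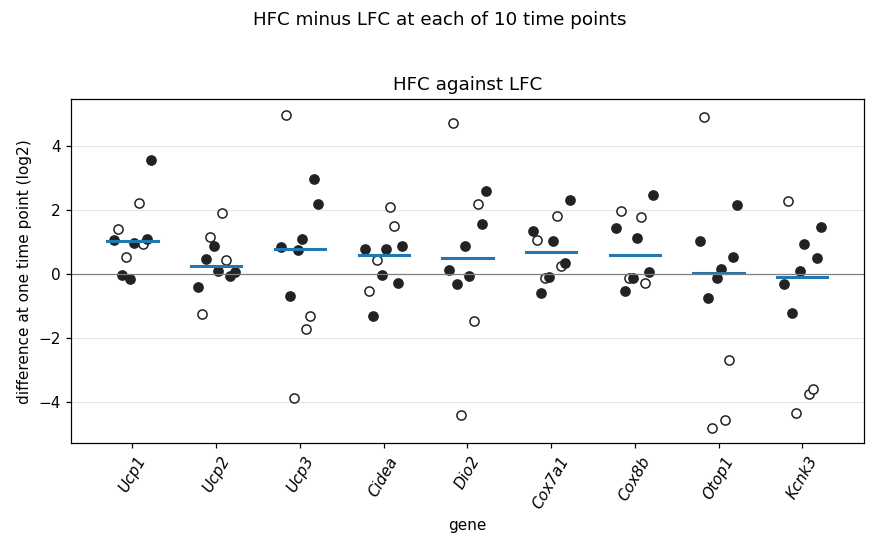
HFC minus LFC (vertical axis, log2) for each of the 9 genes (horizontal axis), 1 point per time point, filled where both arrays were of the same brightness class and open where they were not, with a bar at the median of the 10 pairs. For Ucp1, 8 of 10 points are above 0, while the largest gaps of Otop1 and Kcnk3, on both sides of 0, are open points.

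Time on the diet was tested as a slope per week over the same 20 arrays. Over all genes 356 passed, or 1.63%, and of the 9 thermogenic genes 0 passed, although all 9 slopes were below 0, with a median of -0.023 against 0.004 over all genes. Ucp3 had a slope of -0.14 per week (SE 0.06, limma adjusted p = 0.203), Kcnk3 of -0.094 (SE 0.053, limma adjusted p = 0.323) and Dio2 of -0.072 (SE 0.060, limma adjusted p = 0.519). The bright arrays of LFC and HFC were those of Day 10, Week 0, Week 3, Week 9 and Week 12, and with the brightness class as a covariate the slopes were -0.097 for Ucp3, -0.055 for Kcnk3 and -0.036 for Dio2 (limma adjusted p = 0.061, 0.084 and 0.594).

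The change of the diet difference with time had 0 of 21856 genes called by limma (0%), and 3346 genes, 15.3%, at an unadjusted p under 0.05. The fitted slope of HFC minus LFC was above 0 for 8 of the 9 genes and 0 were called. Ucp1 had a difference of 0.098 per week (SE 0.041, limma adjusted p = 0.288), Cox7a1 of 0.056 (SE 0.041, limma adjusted p = 0.589) and Cidea of 0.059 (SE 0.045, limma adjusted p = 0.601). For Ucp1 this rested on Week 18, where LFC stood at 3.38 and HFC at 6.95, since the slope was 0.042 without that time point. For Cox7a1 it was 0.014 without Week 18. For Ucp1, LFC stood at 6.06, 4.93 and 3.38 at Weeks 12, 15 and 18, and HFC at 7.01, 6.04 and 6.95.

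Restricted to Weeks 3 to 18, in a fit of all 5 groups on 30 arrays, 2 genes of 21856 passed between HFC and LFC, or 0.00915%, and neither was a thermogenic gene. Ucp2 was 0.56 higher in HFC (SE 0.36, limma adjusted p = 0.429), Ucp1 1.45 higher (SE 0.98, limma adjusted p = 0.451) and Cox7a1 0.96 higher (SE 0.72, limma adjusted p = 0.488). The wide error of Ucp1 came with the HF75 Week 3 array, which enters the shared estimate of spread. Without that array the SE of Ucp1 was 0.47 and its limma adjusted p 0.320.

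The next comparisons set each Kal-1 dose against the high fat high sucrose diet alone, at the same 6 time points. They share the HFC arrays, so their values are given side by side and not as independent evidence. For HF5, 0 of 21856 genes passed by limma (0%) and 1193, 5.46%, had an unadjusted p under 0.05. Of the thermogenic genes 5 were higher and 4 lower in HF5, with a median difference of 0.03 against 0.01 over all genes. Ucp3 was at -1.29 (SE 1.04, limma adjusted p = 0.850), Kcnk3 at -0.76 (SE 0.90, limma adjusted p = 0.896) and Ucp2 at 0.27 (SE 0.36, limma adjusted p = 0.907). HFC at Week 3 was a bright array and HF5 a dim one, and in the other 5 pairs, both dim, the mean difference was -0.31 for Ucp3 and -0.03 for Kcnk3. In those 5 pairs Cox7a1 and Cox8b were higher in HF5 in 5 of 5, by 0.02 to 1.18 and by 0.14 to 1.01. The share of all genes higher in 5 of 5 was not counted. Ucp1 was higher in 3 of 5, with a mean of 0.19, and by its second probe in 3 of 5, with a mean of 0.13. Over all 6 pairs the 95% interval for Ucp1 was -2.10 to 1.98. This interval uses the shared spread that includes the HF75 Week 3 array, while the SD of the 6 pair differences was 0.95.

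For HF20, 0 of 21856 genes passed by limma (0%) while 7245, 33.1%, had an unadjusted p under 0.05, and the median of all genes was -0.20. Dio2 was 2.07 higher in HF20 (SE 0.98, limma adjusted p = 0.145, 5 of 6 time points), Kcnk3 1.86 higher (SE 0.90, limma adjusted p = 0.151, 3 of 6) and Ucp3 1.95 higher (SE 1.04, limma adjusted p = 0.179, 4 of 6). Of the 9 genes 6 were higher and 3 lower, with a median of 0.33. Ucp1 differed by -0.01, with pair differences from -0.42 to 0.71, but 4 of the 6 HF20 spots were saturated and give lower limits. By the second probe, which was never saturated, Ucp1 was 0.73 higher in HF20 (limma adjusted p = 0.691, 4 of 6 time points), and its mean was -0.56 in the 3 pairs of the same class. The differences of Dio2, Kcnk3 and Ucp3 stood with the pairs of unlike brightness, since HF20 was bright and HFC dim at Weeks 6, 12 and 15. In the 3 pairs of the same class the means were 0.03 for Dio2, -0.28 for Kcnk3 and -0.27 for Ucp3, and with the brightness class as a covariate they were 0.73, -0.08 and 0.21. Skeletal muscle markers were higher in HF20 for 16 of 16 genes, with a median of 1.53 and 0 called, and the mean of this list ran from -3.67 to 4.87 in HF20 and from -3.77 to 1.37 in HFC over the same 6 weeks. That mean was higher in HF20 at Week 3 (4.28 against -3.77) and Week 15 (4.87 against -0.41). At Weeks 6, 9, 12 and 18 it was lower in HF20 than in HFC. Brown adipocyte markers were higher for 10 of 11 genes, with a median of 1.5. Of them, 3 genes had an unadjusted p under 0.05 and 0 were called by limma. Their mean ran from 0.67 to 3.57 in HF20 and from -0.11 to 2.70 in HFC. At Weeks 6, 12 and 15, the pairs of unlike brightness, this mean was 2.53, 3.57 and 3.25 in HF20. In HFC it was then -0.11, 0.78 and 0.42. In the pairs of the same class it was lower in HF20 than in HFC at Week 3. It was 1.41 in HF20 against 0.86 in HFC at Week 9, and 0.67 against 0.57 at Week 18. Macrophage markers were higher for 13 of 14 genes, with a median of 0.61, erythroid markers were lower for 8 of 8, with a median of -1.54, and lymphocyte markers were lower for 11 of 14, with a median of -0.57. The macrophage mean was higher in HF20 at Weeks 3, 6, 9 and 12 and lower at Weeks 15 and 18. The lymphocyte mean was higher in HF20 at Weeks 3, 6 and 9 and lower at Weeks 12, 15 and 18. At Weeks 3, 9 and 18 the erythroid mean was -1.58, 1.69 and 2.07 in HF20 and -1.41, 1.99 and 2.08 in HFC. At Weeks 6, 12 and 15 it was -1.36, -1.93 and -2.16 in HF20 and 1.19, 1.46 and -0.05 in HFC. The part of these markers in the result was not tested.

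For HF75, 0 of 21856 genes passed by limma (0%) and 1999, 9.15%, had an unadjusted p under 0.05. Of the 9 genes 8 were lower and 1 higher in HF75, with a median of -1.74 against -0.03 over all genes. Ucp1 was at -2.26 (SE 0.98, limma adjusted p = 0.539, lower at 5 of 6 time points), Ucp3 at -2.30 (SE 1.04, limma adjusted p = 0.539, 6 of 6) and Cox8b at -1.91 (SE 0.86, limma adjusted p = 0.539, 4 of 6). These sizes rested on Week 3, where the pair difference was -9.64 for Ucp1, -8.15 for Ucp3 and -8.64 for Cox8b. The HFC spots of Ucp1 and Cox8b were saturated in that week, and Ucp3 was well above background on 1 of 6 HF75 arrays, so these gaps are limits and not exact sizes. Without that array in the fit Ucp1 was at -0.78 (SE 0.50, limma adjusted p = 0.821), Ucp3 at -1.53 (SE 1.01, limma adjusted p = 0.821) and Cox8b at -0.62 (SE 0.44, limma adjusted p = 0.826). Over the 5 pairs from Week 6 on, all of dim arrays, the mean difference was -0.78 for Ucp1, -1.13 for Ucp3 and -0.57 for Cox8b. By its second probe Ucp1 had a mean difference of -0.80 over these pairs and was lower in 3 of 5. Kcnk3 was lower in HF75 at 6 of 6 time points, with pair differences from -5.18 to -0.43 and no overlap between the groups, which was so for 19 of 21856 genes, or 0.0869%, with HF75 below HFC. It was at -1.64 (limma adjusted p = 0.566) over all pairs and at -1.25 (limma adjusted p = 0.835) without the Week 3 array. The closest values of the groups were -1.18 in HF75 and -1.13 in HFC. By its second probe Kcnk3 was lower at 5 of 6 time points, with pair differences from -4.48 to 0.25, and the groups overlapped. Brown adipocyte markers were lower in HF75 for 10 of 11 genes, with a median of -1.43, and their mean ran from -2.87 at Week 3 to 0.42 in HF75. The gap was widest at Week 3, where this mean was 2.70 in HFC. From Week 6 to Week 18 it ran from -0.23 to 0.42 in HF75 and from -0.11 to 0.86 in HFC. Erythroid markers were lower for 8 of 8 genes and lymphocyte markers for 12 of 14, with medians of -0.44 and -0.17 and 0 called by limma in any of these lists. Their part in the result was not tested.

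**Figure D5:**
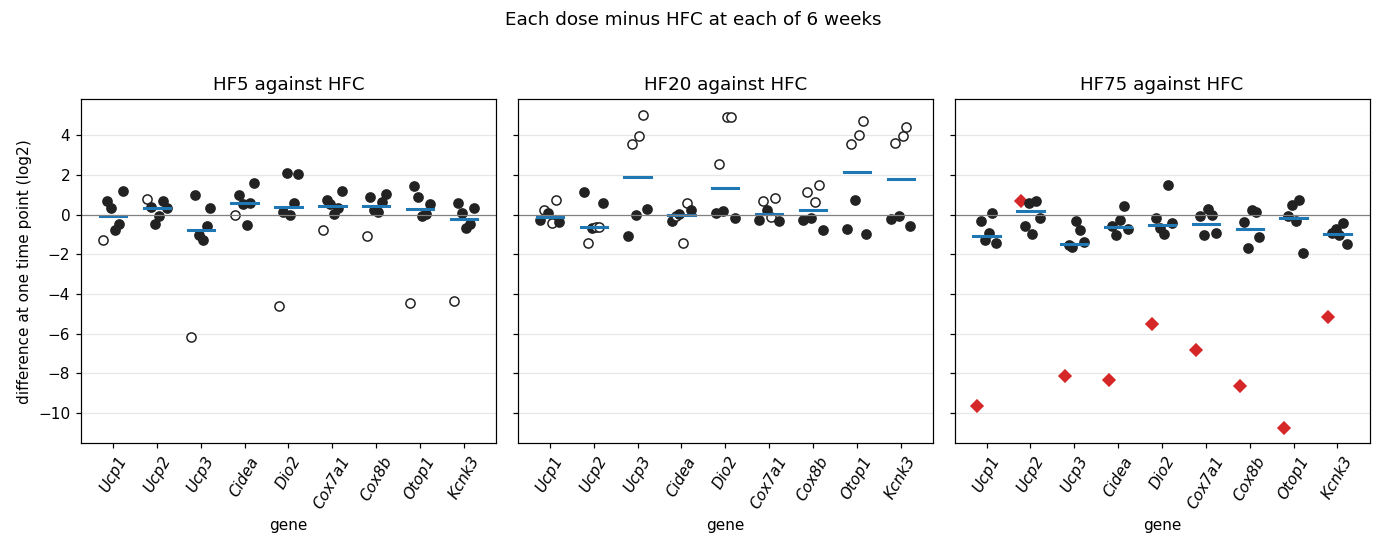
Each Kal-1 dose minus HFC (vertical axis, log2) for the 9 genes (horizontal axis) in 3 panels, 1 point per week, filled for pairs of the same brightness class and open for unlike classes, a red diamond for HF75 Week 3 and a bar at the median of the 6 pairs. In the HF20 panel the points at 2 and above are open for Ucp3, Dio2, Otop1 and Kcnk3, and in the HF75 panel the diamonds of 8 genes lie at -5 or lower while that of Ucp2 lies above 0.

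The doses were also compared with each other, by a moderated F test of HF20 minus HF5 and HF75 minus HF5 on the same 30 arrays. Over all genes 2924 passed, or 13.4%. Of the 9 thermogenic genes 2 passed, Ucp3 (limma adjusted p = 0.0352) and Kcnk3 (limma adjusted p = 0.0374), and Dio2 was next (limma adjusted p = 0.0647). For Ucp3 the difference was 3.24 for HF20 minus HF5 and -1.01 for HF75 minus HF5, and HF75 and HF20 did not overlap. For Kcnk3 the same differences were 2.61 and -0.88, again with no overlap between HF75 and HF20, although these groups overlapped by its second probe. Of all genes 3.77% lay lower in HF75 than in HF20 with no overlap. A count of 2 in 9 stands against 13.4% of all genes.

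Brightness differed between the doses, with 4 of 6 arrays bright in HF20, 0 of 6 in HF5 and 1 of 6 in HF75. At Weeks 9 and 18, where HF20 and HF5 were both dim, HF20 minus HF5 was 1.01 and -0.06 for Ucp3 and -0.12 and -0.89 for Kcnk3. With the brightness class as a covariate the limma adjusted p was 0.366 for Ucp3 and 0.294 for Kcnk3, in a fit where 0 of 21856 genes passed and 2491 had an unadjusted p under 0.05. There HF20 minus HF5 was 0.92 for Ucp3 and 0.02 for Kcnk3, while HF75 minus HF5 was -1.59 and -1.53, further from 0 than in the fit without the covariate. In the fit that leaves out HF75 Week 3 the limma adjusted p was 0.0643 and 0.0688, and HF75 minus HF5 was -0.24 and -0.50. Neither gene passed when any 1 of the 4 bright HF20 arrays was left out, those of Weeks 3, 6, 12 and 15, with limma adjusted p from 0.0687 to 0.159 for Ucp3 and from 0.0697 to 0.161 for Kcnk3. The same held without the HF75 array of Week 6 (0.0501 and 0.0525) or Week 12 (0.0640 and 0.0663), and for Kcnk3 without the HF5 array of Week 12 (0.0512). By its second probe Kcnk3 had a limma adjusted p of 0.0564.

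Across arrays, several of the 9 genes varied with Ucp1. Over the 37 arrays without HF75 Week 3, Pearson's r with Ucp1 was 0.921 for Cox7a1, 0.908 for Cox8b, 0.693 for Cidea, 0.454 for Dio2, 0.426 for Ucp3, 0.364 for Otop1, 0.171 for Kcnk3 and 0.081 for Ucp2. Over the 27 dim arrays alone it was 0.922, 0.938, 0.768, 0.752, 0.707, 0.866, 0.360 and 0.184 in the same order. Cox7a1 and Cox8b had an r of 0.974 with each other over the dim arrays. These points share the scaling of the array, its brightness and its tissue piece, so the values are a description. Ucp3, Dio2, Otop1 and Kcnk3, which were higher on bright arrays, had r from 0.660 to 0.902 among themselves over the 37 arrays, and from 0.074 to 0.767 over the dim arrays.

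Outside the set, Chchd10, Cox5b, Cs and Fabp3 were among the genes most like Ucp1 over all 38 arrays. Chchd10, a mitochondrial protein, had an r of 0.927 over 38 arrays and 0.954 over the 27 dim arrays. Cox5b, a subunit of cytochrome c oxidase found in all tissues, had 0.854 and 0.930. Cs, the enzyme that opens the citric acid cycle, had 0.826 and 0.900. Fabp3, a fatty acid carrier of muscle and brown fat, had 0.825 and 0.869. With HF75 Week 3 left out, Fabp3 came down to 0.746, while the other 3 stood between 0.895 and 0.929.

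Other genes of the same biology were read as lists. Of 27 genes that control Ucp1 transcription, such as adrenergic receptors, cyclic AMP signalling and nuclear receptors, 0 were called by limma in any comparison of a diet or of a dose with HFC. In the slope over weeks 1 of the 27 was called, where 1.63% of all genes were called. It was Gnas, the stimulatory G protein, which fell by 0.076 per week (SE 0.018, limma adjusted p = 0.0421). Among the doses 8 of the 27 were called, led by Gnas and Ppara, a fatty acid sensing receptor, both with a limma adjusted p of 0.0342, where 13.4% of all genes were called. Of 24 genes that supply fuel, 0 were called between HFC and LFC, where Elovl3 was at -2.98 (SE 0.83, limma adjusted p = 0.644) and Acsl5, an activator of fatty acids, at -1.24 (SE 0.38, limma adjusted p = 0.644). Among the doses 7 of the 24 were called, led by the carnitine carrier Slc25a20 (limma adjusted p = 0.0342) and Hadha, an enzyme of fatty acid oxidation (limma adjusted p = 0.0352).

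The forms of cytochrome c oxidase subunits found in all tissues, 8 genes, had 3 higher and 5 lower in HFC and a median of -0.079, with Cox6a1 at 0.55 and Cox5b at 0.41, and were not tested against Cox7a1 and Cox8b. Among the doses 1 of the 8 was called, Cox6b1 (limma adjusted p = 0.0369). The share of all genes called among the doses was 13.4%, which stands beside each list count in this paragraph. Of 15 relatives and isoforms of the members, 12 were tested and 1 was called among the doses, Cox7a2l (limma adjusted p = 0.0454), with a median difference between HFC and LFC of 0.019. Of 15 genes of other heat producing cycles, such as creatine and calcium cycling, 1 was called among the doses, the ADP and ATP carrier Slc25a5 (limma adjusted p = 0.0363), with a median between HFC and LFC of -0.020. Over all 21856 genes, limma called 0 among the doses with the brightness class as a covariate (2491 at an unadjusted p under 0.05) and 0 without the HF75 array of Week 3 (7554 at an unadjusted p under 0.05), so none of these list calls held in either fit.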

How the data were processed

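Total RNA of brown adipose tissue was labelled with Cy3 and hybridised to 1-colour Agilent arrays, 38 arrays on 32 slides, read on 12 scan days. The authors deposited scanner files with the processed signal of each spot in intensity units, made by Agilent Feature Extraction, version 10.5.1.1 per the file headers and 9.1 in the submitters' processing notes. The authors also deposited a table of log2 values in which LFC is 0, used as an alternative. Of its columns, 24 followed the scanner differences (r from 0.994 to 1.0) and the 4 columns of Week 15 did not (r from -0.00377 to 0.00272), so Week 15 was left out there. The study's own methods describe the liver arrays of the same feeding experiment.

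Control spots were left out, which left 43803 spots and 40628 probes. For each spot, log2 signal minus log2 of the 75th percentile of the array was taken. Spots flagged as non-uniform or as population outliers were then left out and the other spots of a probe averaged. The probe with the highest mean stood for each gene name. Genes flagged as above background on 6 or more arrays were tested with limma 3.58.1 in R 4.3.3 (lmFit, eBayes, Benjamini-Hochberg over all genes, threshold 0.05, two-sided). The time point was a block except in the slope over weeks. Their number of arrays limits the precision. The fits were tested on simulated data. At 2 time points, Week 6 and Week 9, arrays were read on 2 scan days. Sequences came from RefSeq, build GRCm38.p6. All 9 genes are described, with statistics for the 3 of smallest p in each comparison and for up to 2 genes of each other list, and the 5 genes most like Ucp1 were ranked by Pearson's r, of which 1 is not reported here. The members and lists were chosen with earlier results of these data known. The alternatives were other background correction, normalization, filters, probes, covariates, blocks and arrays left out. The brightness class, the next probe and leaving out the HF75 Week 3 array were chosen after seeing the data.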

Additional observations from a re-analysis of the deposited data

Results flagged for a closer look

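In groups of 6 or 10 arrays, 9 values in 45 groups stood so far from their nearest neighbour that a gap test at the 5% level picks them out, where chance picks about 1 in 20. Of these, 6 came from the HF75 array of Week 3. They were Ucp1 at -3.07 with the next HF75 value at 5.53, Ucp3 at -6.80 with the next at -4.13, Cidea at -1.78 with the next at 5.81, Cox7a1 at -0.33 with the next at 5.56, Cox8b at -2.01 with the next at 5.28 and Otop1 at -8.21 with the next at -2.85. Another was Ucp1 in LFC at Week 18, at 3.38 with the next LFC value at 4.93. The remaining pair lay at Week 9 in HF20, where Ucp1 stood at 8.32 with the next HF20 value at 6.75 and Cox7a1 at 8.02 with the next at 6.43. That array was dim, while 4 of the other 5 HF20 arrays were bright and had saturated spots for both genes.

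The difference among the Kal-1 doses passed for Ucp3 (limma adjusted p = 0.0352) and Kcnk3 (limma adjusted p = 0.0374). Neither call held without the HF75 array of Week 3.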

How the results depend on the processing

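In 7 of the 8 comparisons 0 of the 9 genes were called under every alternative run, those with an array or time point left out included. The exception was the F test among the doses, with 2 called. It called 0 with normexp background correction, without the filter on dim probes, with log2 of the 75th percentile, the skeletal muscle mean or the brightness class as a covariate, in the authors' table without Week 15, without the HF75 array of Week 3, and without that array with the brightness class. It called 1 with genes well above background on every array and 1 with the next probe, and 4 with the slide as a random block. Leaving out 1 array or time point gave 0 to 4. Without the replicate block, that is, with the time point left out of the model, it called 2, and the other comparisons 0. Over all genes this test called 2924, and 0 to 6659 under the alternatives, the highest without the HF20 array of Week 9. The slope over weeks called 356 genes, and 2 to 1734 under the alternatives.

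Signs turned for Ucp2 in HF5 against HFC with the mean of all probes (-0.078), for Kcnk3 in HF20 against HFC with the brightness class (-0.085) and with that class and without HF75 Week 3 (-0.375), and for Ucp3 in HF20 against HFC in the last setting (-0.230). The cause was not tested. Of 757 values for named genes under an alternative, these included, 707 kept direction and side of the threshold. The slope was not run by scan day, with all 38 arrays, with Day 14 and Week 0 joined or in the authors' table, and it has no block to leave out. Dim signals of Ucp3 and saturated spots of Ucp1, Cidea, Cox7a1 and Cox8b limit what the arrays resolve.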
